A study of Homo sapiens with 9 samples.

Results

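The transcripts described here are those of 10 genes, 8 serine proteases that act at the cell surface (ST14, TMPRSS2, TMPRSS3, TMPRSS4, TMPRSS13, HPN, PRSS8 and PRSS22) and the 2 inhibitors that keep them in check (SPINT1 and SPINT2). They were taken by gene symbol, and all 10 were among the 58676 genes of the count table. Messenger RNA was sequenced from OVCA433, an established human ovarian serous adenocarcinoma line, after lentiviral transduction and puromycin selection. The 3 groups were a control vector, shRNA hairpin #1 against MPZL3 and shRNA hairpin #3 against MPZL3, each with 3 libraries marked A, B and C. The control of this line was described as an empty vector in the methods for sequencing and as a scrambled hairpin elsewhere, so whether it expressed a hairpin is uncertain. MPZL3 is a predicted cell adhesion molecule, and the study asked what its loss does to ovarian cancer cells. Library totals ranged from 16850854 to 23890191 counts.

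Type II transmembrane serine proteases are anchored at their amino terminus and hold their catalytic domain outside the cell. They are made as inactive zymogens and are switched on by cleavage, often by one another. A well studied one is matriptase, the product of ST14, which in epithelia works with the lipid-anchored protease prostasin, the product of PRSS8, and is held back by HAI-1 and HAI-2, the Kunitz-type inhibitors encoded by SPINT1 and SPINT2. Together they set epithelial barrier integrity, sodium channel activation and the processing of hepatocyte growth factor. The members without a transmembrane anchor are PRSS8 and PRSS22, tryptase epsilon, the latter known mainly as a secreted enzyme.

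All 8 proteases carry the same catalytic motif around the active-site serine, and the stretch that encodes it is shown to set out how far their messages differ there. The sequences are 27 coding bases from GENCODE 29 transcripts on GRCh38, read 5′ to 3′ along the message, with the serine codon in capitals and 4 codons on either side.
ST14 (chr11:130209573-130209682, exons 18 and 19 of 19): tgccagggtgatTCCgggggacccctg
PRSS8 (chr16:31132315-31132434, minus strand, exons 5 and 6 of 6): tgccagggtgacTCTgggggcccactc
PRSS22 (chr16:2853309-2853870, minus strand, exons 5 and 6 of 6): tgtctgggcgacTCCgggggccccctc
TMPRSS2 (chr21:41467866-41468401, minus strand, exons 12 and 13 of 14): tgccagggtgacAGTggagggcctctg
TMPRSS3 (chr21:42375848-42376546, minus strand, exons 11 and 12 of 13): tgccagggggacAGCggggggcccctg
TMPRSS4 (chr11:118115275-118117325, exons 11 and 12 of 13): tgccagggtgacAGTggtgggcccctg
TMPRSS13 (chr11:117903787-117903964, minus strand, exons 11 and 12 of 13): tgccagggagacAGCggggggcctctt
HPN (chr19:35065676-35065888, exons 11 and 12 of 13): tgccagggcgacAGCggtggtcccttt

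In all 8 genes the printed stretch spanned an intron. The serine was written with the codon TCC in 2 genes and TCT in 1, and with AGC in 3 and AGT in 2. ST14, PRSS8 and PRSS22 used the former kind of codon, and the 4 TMPRSS genes and HPN the latter. Despite the shared motif, the longest run of bases common to the transcripts of any pair of the 10 members was 18, between TMPRSS2 and PRSS8, so the counts of these genes are not those of near-identical copies.

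MPZL3 was examined first, as the gene that both hairpins target. It held 322, 440 and 440 counts in control libraries A, B and C, 40, 39 and 42 with hairpin #1, and 33, 18 and 39 with hairpin #3. Each of the 6 knockdown libraries was below the lowest control library, and 8.92% of the control level was left (95% exact counting interval 7.67% to 10.34%). The pooled log2 fold change was -3.49 (SE 0.19, edgeR adjusted p = 6.87e-08).

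Both inhibitors and 6 of the 8 proteases were called lower in MPZL3 knockdown cells, and the other proteases, TMPRSS2 and TMPRSS3, had too few counts to be tested. Of the 10 members, 8 passed the filter on low counts, and all 8 were called lower when the 6 knockdown libraries were compared with the 3 control libraries, where 7.4% of 15975 tested genes were called lower and 7.26% higher. ST14, TMPRSS4, TMPRSS13, HPN and PRSS22 passed that filter only through the control libraries. Their counts could therefore only be called lower or not called, and their share of calls is no separate support. A gene was called at an adjusted p under 0.05 and a log2 change of at least 1 in size, the p coming from the quasi-likelihood test of edgeR after Benjamini-Hochberg adjustment. All 8 were also called lower with hairpin #1, against a background of 8.55% of tested genes, and with hairpin #3, against 7.83%. The comparisons share their control libraries. In RNA from whole cultures, fewer cells of a type and less RNA per cell cannot be told apart.

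**Figure D1:**
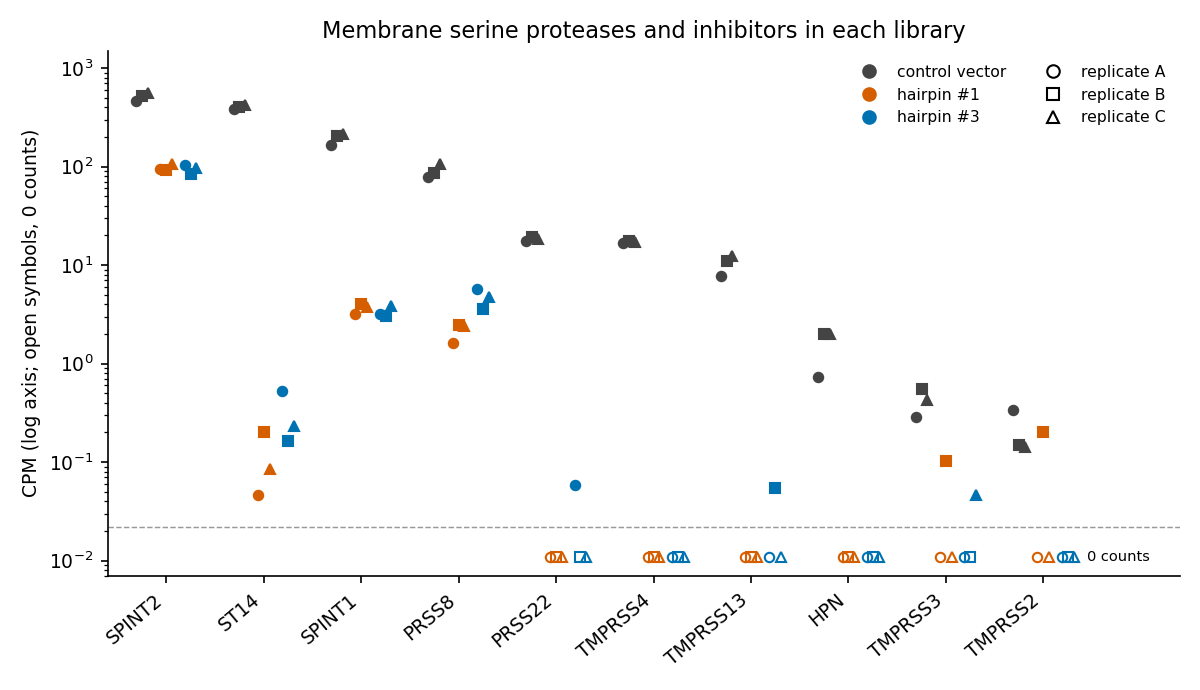
CPM, counts scaled to a common library size (log axis), of the 10 members in each of the 9 libraries, coloured by group and with a symbol for each replicate letter. Open symbols under the dashed line mark libraries with 0 counts. SPINT2 stayed between 84.6 and 105 CPM in the knockdown libraries, whereas TMPRSS4 and HPN had no count in any of them.

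Matriptase was the leading protease of the control cells. ST14 (ENSG00000149418, chr11:130159562-130210376, hg38) held 7941, 8194 and 8930 counts in control libraries A, B and C, 1, 4 and 2 with hairpin #1, and 9, 3 and 5 with hairpin #3. The groups did not overlap, with at most 9 reads in any knockdown library. In CPM, for which each library was scaled with its TMM factor, its mean was 406 ± 21.1 (SD, n = 3) in control cells, 0.112 ± 0.0815 under hairpin #1 and 0.308 ± 0.194 under hairpin #3. By control CPM it ranked at place 350 in the table. The log2 fold change was -10.95 (SE 0.24, edgeR adjusted p = 6.81e-11), and the summed counts were 2055-fold lower (1381 to 3207 by counting error). With so few reads left, this SE, which was derived from the test statistic, understates the error of counting. With hairpin #1 alone the log2 fold change was -11.79, and -12.44 without replicate B, which held 4 of the 7 reads.

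Prostasin kept more of its control level than matriptase, and their counting intervals did not overlap. PRSS8 (ENSG00000052344, chr16:31131433-31135762, minus strand) held 1634, 1749 and 2239 counts in control libraries, 35, 49 and 56 with hairpin #1, and 97, 65 and 104 with hairpin #3. The control libraries lay far above the others, and the 3 hairpin #3 libraries lay above all hairpin #1 libraries. The level left was 2.39% of control with hairpin #1 (95% exact counting interval 2.003% to 2.82%) and 5.12% with hairpin #3 (4.51% to 5.80%). The pooled log2 fold change was -4.74 (SE 0.28, edgeR adjusted p = 1.33e-07).

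PRSS22 (ENSG00000005001, chr16:2852727-2858170, minus strand) held 361, 386 and 383 counts in control libraries, none with hairpin #1, and 1, 0 and 0 with hairpin #3. A single read was therefore left in 6 libraries, 0.0450% of control (0.00114% to 0.251%), and the edgeR adjusted p was 1.02e-09.

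Among the TMPRSS proteases, TMPRSS4 and TMPRSS13 were close to absent in knockdown cells. TMPRSS4 (ENSG00000137648, chr11:118077012-118121890) held 347, 350 and 363 counts in control libraries and 0 in all 6 knockdown libraries. Taking 3 counts over the group as the limit that a count of 0 allows, its level was at least 695-fold lower, at least 369-fold with hairpin #1 and at least 326-fold with hairpin #3 (edgeR adjusted p of the pooled comparison 3.93e-07). TMPRSS13 (ENSG00000137747, chr11:117900643-117929459, minus strand) held 162, 224 and 257 counts in control libraries, and 1 read in all knockdown libraries together, in replicate B of hairpin #3. That is 0.0791% of control (0.001998% to 0.442%). Both genes neighbour MPZL3 on chromosome 11, TMPRSS4 at 104800 bases and TMPRSS13 at 297231 bases, whereas ST14 lies 11907212 bases away on the same chromosome.

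Hepsin, a protease of liver that is also made in prostate and ovarian tumours, was scarce to begin with. HPN (ENSG00000105707, chr19:35040506-35066571) held 15, 40 and 42 counts in control libraries and 0 in all knockdown libraries. The level was at least 63.6-fold lower (edgeR adjusted p = 0.000362), at least 33.8-fold with hairpin #1 and at least 29.9-fold with hairpin #3. Control library A held fewer reads than B and C, and still more than any knockdown library.

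TMPRSS2, known for priming viral spike proteins in airway and for its fusions in prostate cancer, and TMPRSS3, a protease needed for hearing, were removed by the filter. TMPRSS3 (ENSG00000160183, chr21:42371890-42396846, minus strand) held 6, 11 and 9 counts in control libraries, 0, 2 and 0 with hairpin #1, and 0, 0 and 1 with hairpin #3. The groups did not overlap, and 5.87% of control was left (1.14% to 19.1%). TMPRSS2 (ENSG00000184012, chr21:41464551-41531116, minus strand) held 7, 3 and 3 counts in control libraries, 0, 4 and 0 with hairpin #1, and 0 in each hairpin #3 library. Replicate B of hairpin #1 overlapped the control libraries. In a fit with no filter, on 31914 genes, TMPRSS3 was called lower (log2 fold change -3.79, edgeR adjusted p = 0.00176) and TMPRSS2 was not (-2.46, edgeR adjusted p = 0.126), although TMPRSS2 was called with hairpin #3 (edgeR adjusted p = 0.0246).

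Both inhibitors kept more of their control level than matriptase. HAI-1 is the principal inhibitor of matriptase. SPINT1 (ENSG00000166145, chr15:40844018-40858207) held 3400, 4130 and 4536 counts in control libraries, 68, 80 and 87 with hairpin #1, and 54, 56 and 83 with hairpin #3. All knockdown libraries lay far below control, and those of the hairpins overlapped. Its mean went from 195 ± 27.4 CPM (SD, n = 3) to 3.66 ± 0.450 and 3.35 ± 0.404, and the log2 fold change was -5.80 (SE of 0.12, edgeR adjusted p = 6.81e-11).

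HAI-2 inhibits prostasin and matriptase and, when lost in people, gives congenital sodium diarrhoea. SPINT2 (ENSG00000167642, chr19:38244035-38292614) held 9501, 10451 and 11644 counts in control libraries, 2013, 1801 and 2461 with hairpin #1, and 1747, 1543 and 2108 with hairpin #3. The knockdown libraries were lower without overlap, yet the lowest still held 1543 reads. The mean was 512 ± 48.6 CPM (SD, n = 3) in control cells, 97.0 ± 7.41 under hairpin #1 and 94.7 ± 9.26 under hairpin #3. The log2 fold change was -2.42 (SE 0.09, edgeR adjusted p = 3.38e-09), and 18.8% of control was left (18.4% to 19.2%). This interval lay above those of SPINT1 (1.80%, 1.63% to 1.99%), PRSS8 (3.67%, 3.31% to 4.06%) and ST14 (0.0487%, 0.0312% to 0.0724%). The intervals and limits on the level left reflect the error of counting alone, from counts summed over libraries. They leave out the spread between libraries and between hairpins, and PCR copies were not told apart by molecular identifiers. The pooled PRSS8 interval, for one, held neither hairpin's own value (2.39% and 5.12%). Intervals that do not overlap are therefore no test of a difference between genes.

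**Figure D2:**
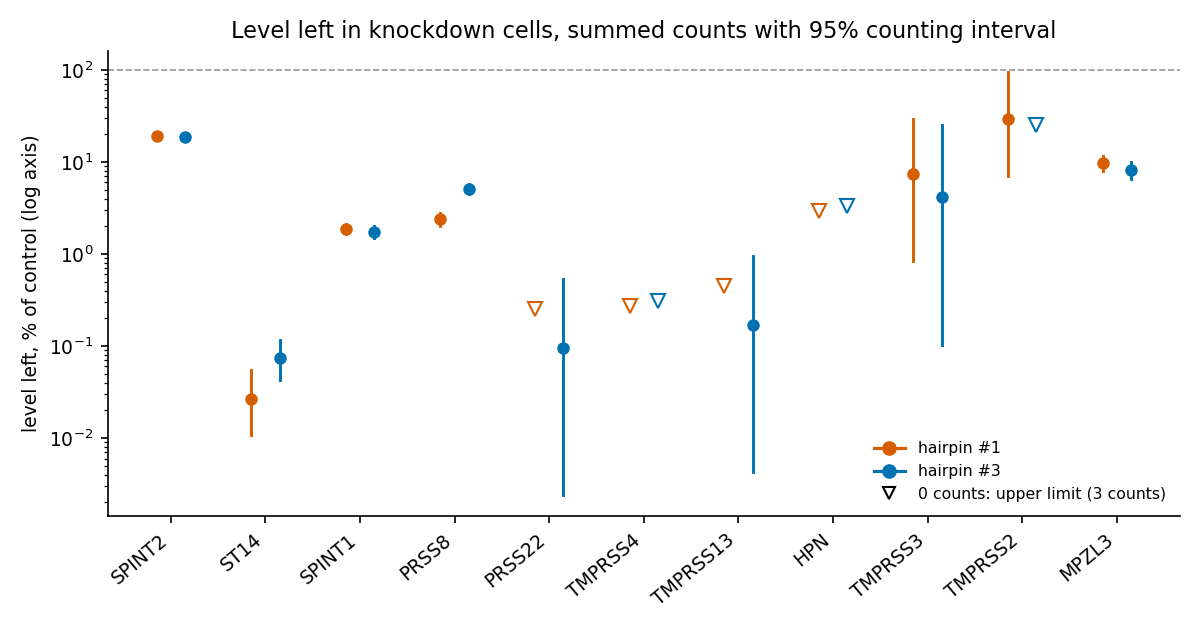
Level left with each hairpin as a percentage of control (log axis), from summed counts scaled for library size, for the 10 members and MPZL3. Points carry the 95% exact counting interval, and open triangles give the upper limit from 3 counts where no read was found. SPINT2 kept 19.0% with hairpin #1 and 18.5% with hairpin #3, ST14 under 0.1% with either.

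The hairpins were then compared with each other. Of the 8 tested members, 1 differed, PRSS8, where 3.93% of all tested genes were called in either direction. PRSS8 was higher with hairpin #3 by a log2 difference of 1.10 (SE 0.22, edgeR adjusted p = 0.00511). This call did not survive the fold threshold when hairpin #1 replicate A was left out (log2 difference 0.93, edgeR adjusted p = 0.0145) or when hairpin #3 replicate A was left out (0.95, edgeR adjusted p = 0.0165). ST14 had 17 reads with hairpin #3 and 7 with hairpin #1, a log2 difference of 1.41 (95% interval 0.20 to 2.62) that did not pass the adjusted threshold (edgeR adjusted p = 0.134). SPINT1 differed by -0.12 (-0.48 to 0.25) and SPINT2 by -0.03 (-0.27 to 0.20), with edgeR adjusted p-values of 0.742 and 0.897.

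Levels were also put on a per-length scale, TPM, with the gene lengths of the count table, so that the genes can be set side by side. In control cells SPINT2 was at 369 ± 17.7 TPM (SD, n = 3) and ST14 at 350.0 ± 5.12, and their library ranges overlapped. SPINT1 followed at 206 ± 19.2, PRSS8 at 113 ± 13.4 and PRSS22 at 28.8 ± 0.964, each apart from its neighbours in every library. TMPRSS13 (7.24 ± 1.28) and TMPRSS4 (6.48 ± 0.207) overlapped. HPN was at 1.72 ± 0.751, TMPRSS3 at 0.278 ± 0.0758 and TMPRSS2 at 0.131 ± 0.0768, the last pair overlapping. The annotated length sets this order in part, 9948 bases for TMPRSS4 against 5367 for TMPRSS13.

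In knockdown cells the order was different. SPINT2 was at 70.5 ± 3.14 TPM with hairpin #1 and 69.7 ± 8.21 with hairpin #3. With hairpin #1, SPINT1 (3.90 ± 0.439) lay above PRSS8 (2.72 ± 0.532) in every library. With hairpin #3, PRSS8 (5.96 ± 1.504) lay above SPINT1 (3.61 ± 0.337) in every library. ST14 was at 0.0972 ± 0.0717 and 0.274 ± 0.183 TPM, below PRSS8 and both inhibitors in every knockdown library.

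Summed over the 8 proteases, the level was 498, 497 and 528 TPM in control libraries A, B and C, 2.17, 3.53 and 2.96 with hairpin #1, and 8.10, 4.70 and 6.08 with hairpin #3. The sum of both inhibitors was 536, 581 and 608 TPM in control, 74.4, 71.5 and 77.2 with hairpin #1, and 82.0, 65.4 and 72.7 with hairpin #3. Inhibitor transcripts therefore stood at 1.08 to 1.17 for each protease transcript in control libraries, 20.3 to 34.3 with hairpin #1 and 10.1 to 13.9 with hairpin #3. The 3 ranges did not overlap.

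ST14 made up 67.2% to 70.5% of the protease sum in control libraries and 1.94% to 5.96% in knockdown libraries, where PRSS8 made up 89.4% to 98.1%. SPINT2 went from 34.0% to 34.1% of the sum of all members to 87.1% to 92.6%. The ratio of ST14 to its inhibitor SPINT1 was 1.60 to 1.902 in control and 0.01197 to 0.136 in knockdown libraries. These are ratios of transcripts and not of proteins.

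**Figure D3:**
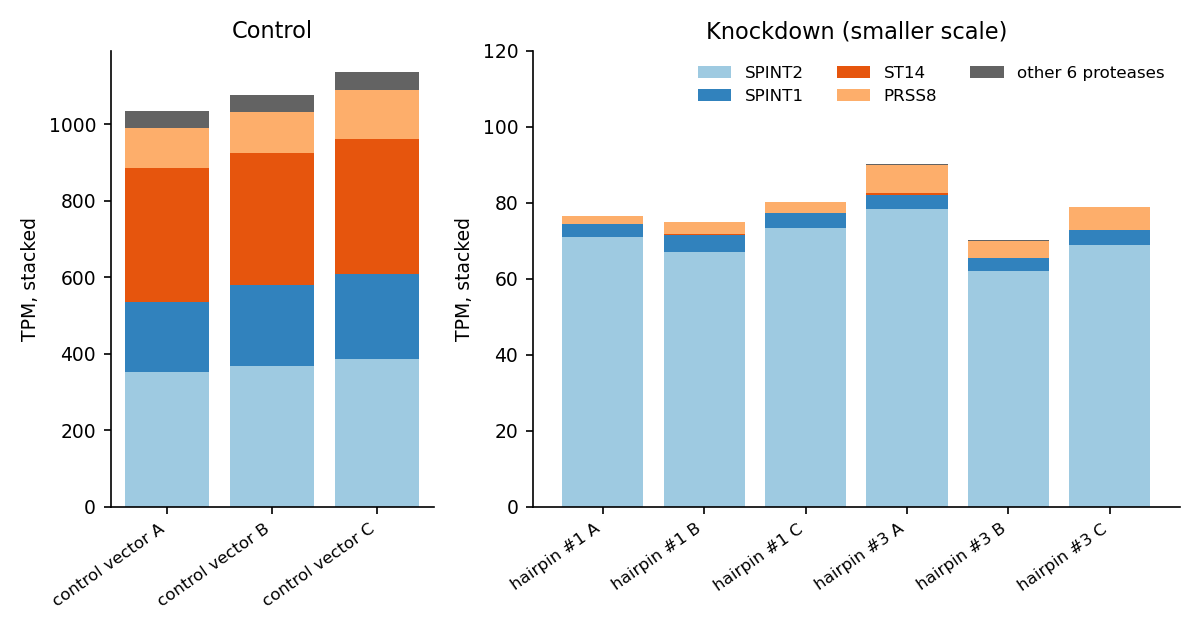
Stacked TPM of the 2 inhibitors, ST14, PRSS8 and the other 6 proteases in each library, control on the left and knockdown on the right with a smaller scale. Control bars are divided mainly among SPINT2, ST14, SPINT1 and PRSS8, and SPINT2 makes up 87.1% to 92.6% of each knockdown bar.

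The genes around these proteases were then examined as lists of pathway genes. Among 16 other membrane serine proteases, 15 were in the table, 6 had no count in any library and 6 were tested. Of these 2 (33.3%) were lower and none higher, where 7.4% of all tested genes were called lower and 7.26% higher. The median log2 fold change was -0.37, against 0.00454 over all tested genes. The 2 called, TMPRSS11E and PRSS27, passed the filter on low counts only through the control libraries. They could only be called lower or not called, and their share is no separate support. TMPRSS11E, an epidermal and airway protease, had 34 to 58 counts in control libraries and 0 in all knockdown libraries, at least 94.4-fold lower. PRSS27, marapsin, an epithelial protease, had 30 to 68 counts in control and 4 to 17 in knockdown libraries (log2 fold change -2.51, edgeR adjusted p = 0.000666). The tested proteases not called included TMPRSS9, at 41 to 54 counts in control and 15 to 64 in knockdown libraries.

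Other serine protease inhibitors moved both ways. Of 23 listed, 13 were tested, 2 were higher, 3 (23.1%) lower and 8 not called, and the median log2 fold change was 0.10. Among all tested genes, 7.26% were called higher and 7.4% lower. SERPINE2, protease nexin-1, rose from 28.3 ± 4.23 CPM (SD, n = 3) to 125 ± 16.5 with hairpin #1 and 52.8 ± 2.41 with hairpin #3 (log2 fold change 1.66, edgeR adjusted p = 0.00395). SERPINA5, the protein C inhibitor, rose by 1.03 (edgeR adjusted p = 0.0152). Both had all 6 knockdown libraries above control.

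The secreted leukocyte protease inhibitor SLPI fell from 25.03 ± 11.8 CPM to 3.24 ± 2.15 and 6.52 ± 2.15 (log2 fold change -2.37, edgeR adjusted p = 0.00105). SERPINB5, maspin, fell by 1.502 on the log2 scale (edgeR adjusted p = 4.43e-07) and SERPINA1, alpha-1-antitrypsin, by 1.43 (edgeR adjusted p = 6.39e-05).

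Known substrates and receptors of the pathway were lower or not called. Of 27 listed, 21 were tested, 10 (47.6%) were lower and none higher, and the median log2 fold change was -0.93. Among all tested genes, 7.4% were called lower and 7.26% higher. EPCAM, an adhesion protein that matriptase cleaves, fell from 402 ± 23.6 CPM (SD, n = 3) to 5.48 ± 1.25 with hairpin #1 and 8.92 ± 1.34 with hairpin #3 (log2 fold change -5.81, edgeR adjusted p = 2.22e-09). KLK5, a secreted kallikrein whose zymogen matriptase can activate, fell by 6.51 on the log2 scale (edgeR adjusted p = 3.38e-09).

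Of the 4 listed subunits of the epithelial sodium channel, which prostasin activates, 2 were called lower, SCNN1A and SCNN1G. SCNN1A went from 14.0 ± 4.53 CPM to 1.80 ± 0.378 and 1.88 ± 0.435 (log2 fold change -2.93, edgeR adjusted p = 8.35e-07). SCNN1G had 11 to 22 counts in control libraries and 0 in all knockdown libraries, at least 31.5-fold lower. It passed the filter only through the control libraries and could only be called lower or not called. SCNN1D was not called (log2 fold change 0.68, edgeR adjusted p = 0.255), and SCNN1B, with 2 counts in control and 1 in knockdown libraries, was not tested. SCNN1D and SCNN1B were named after their values were seen. HGF, the growth factor precursor that matriptase and hepsin activate, had no count in any library.

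The HGF receptor MET and the protease-activated receptor F2RL1 were lower by less than the fold threshold. MET had 740 ± 67.8 CPM in control cells, 394 ± 56.6 under hairpin #1 and 380.5 ± 102 under hairpin #3 (log2 fold change -0.93, edgeR adjusted p = 0.00039). F2RL1 was at 59.8 ± 6.48, 43.4 ± 7.78 and 34.2 ± 7.88 CPM (log2 fold change -0.62, edgeR adjusted p = 0.0134).

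**Figure D4:**
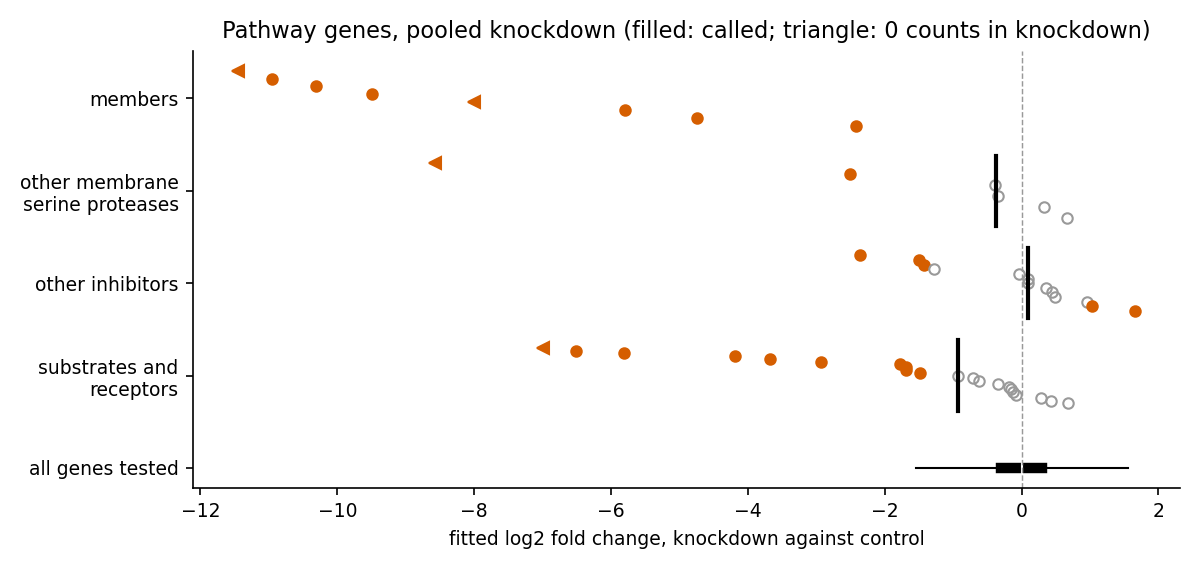
Fitted log2 fold change of knockdown against control for each tested gene of the members and of the 3 pathway lists. Filled symbols were called, open ones were not, triangles had 0 counts in all knockdown libraries and their position depends on the fit, black lines are list medians, and the bottom row gives the median, the middle 50% and the middle 90% of all tested genes. The members lie between -2.42 and the left edge, and the other inhibitors lie on both sides of 0.

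Markers of the cells were measured beside these results. Of 16 ovarian serous epithelial markers, 14 were tested, 8 (57.1%) were lower and 1 higher, the transcription factor PAX8 (log2 fold change 1.07, edgeR adjusted p = 2.25e-05). WT1 had no count in any library. Among all tested genes, 7.4% were called lower and 7.26% higher. CDH1 and MUC16 passed the filter only through the control libraries and could only be called lower or not called. Their summed level was 12050 to 14970 CPM in control and 5514 to 7020 CPM in knockdown libraries. Keratins, named after their values were seen, carried most of it. Control means of KRT7, KRT8, KRT18 and KRT19 were 3427, 4810, 2172 and 1548 CPM. SOX17, also named afterwards, was not called, but all 6 knockdown libraries lay above control (means 27.9 and 14.3 CPM). EPCAM is in this list as well as among the substrates. Of 15 markers of other cell types, 8 were tested, 5 were higher (COL1A1, COL3A1, CDH5, PDGFRB and, named after its value was seen, LUM) and 1 lower (UPK3B, a mesothelial marker). The same shares of all tested genes apply. COL3A1, CDH5 and PDGFRB passed the filter only through the knockdown libraries. Those genes could only be called higher or not called. Their sum was 66.3 to 90.2 CPM in control and 112 to 876 CPM in knockdown libraries, and single genes carried most of it, UPK3B in control (46.7 to 69.6 CPM, and 0.407 to 1.12 in knockdown libraries) and COL1A1 in knockdown libraries (94.8 to 846 CPM, and 16.7 to 20.03 in control). DCN had no count and CD3E and CD68 had at most 2 counts in any library. The part of these shifts in the fall of the members was not tested.

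For ST14, SPINT1 and SPINT2 the genes of most similar pattern were found over the 9 libraries, as the smallest mean absolute difference of log2(CPM + 0.5) after centring on control. Nearest to ST14 were CDH1 (difference 0.288), LAD1 (0.422) and ESRP1 (0.63), against a median of 6.17 over 15974 genes. CDH1 encodes E-cadherin, and went from 275 to 0.130 CPM, LAD1 encodes ladinin, and went from 196 to 0.00980, and ESRP1 encodes an epithelial splicing regulator, and went from 172 to 0.0486. Nearest to SPINT1 were DAPP1 (0.118), ACKR2 (0.152) and KDF1 (0.153), and nearest to SPINT2 were SLC44A3 (0.087), VAV1 (0.097) and RP11-44F14.2 (0.1). The pseudocount limits this measure for genes close to 0. DAPP1, ACKR2 and KDF1, at 0, 0.103 and 0.0156 CPM in knockdown cells, can thus stand beside SPINT1, at 3.50. Likewise RP11-44F14.2, at 0 CPM, can stand beside SPINT2, at 95.8. The nearest genes lie below the median because they were chosen as the smallest differences.

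The genes beside the members on the chromosome were read as well. Of 25 tested neighbours within 50 kb, 6 were called, where 14.7% of all tested genes were called in either direction. ST14 lies between APLP2 (log2 fold change -0.05) and ZBTB44 (-0.36), neither of which was called, and KAT8, 40 bases from PRSS8, was at -0.14. Near SPINT1, RHOV (-1.97) and RP11-540O11.1 (-2.41) were lower, and near SPINT2, KCNK6 (-2.99) and CATSPERG (-3.40) were lower. The antisense gene RP11-532F12.5 overlaps SPINT1 and had 138 counts in the 3 control and 7 in the 6 knockdown libraries. The libraries carried no strand, so reads of SPINT1 and of this gene cannot be told apart where they overlap.

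Promoter windows of 300 bases, 250 before and 50 after the start site, were given by RefSeq (GRCh38.p14) for 3 members, SPINT1 with 2 windows, HPN and TMPRSS3. They were searched for CAGGTG, whose reverse complement CACCTG covers the other strand, an E-box form bound by repressors of the SNAI and ZEB families, and 20.6% of 35116 windows of this length held it. The matches are shown with 9 bases on either side, motif in capitals, plus strand. Distances run from the first base of the motif to the start site, so the HPN motif given at 2 bases spans that site.
SPINT1, second window, 26 bases before the start (chr15:40844442-40844465): cgggctgatCAGGTGtgtctcctc
HPN, 167 bases before the start (chr19:35041545-35041568): agacaggcaCACCTGggtccccct
HPN, 84 bases before the start (chr19:35041628-35041651): cccatcagcCAGGTGgcctccagt
HPN, 2 bases before the start (chr19:35041710-35041733): cctcctcctCAGGTGaggcagcct

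The other SPINT1 window and that of TMPRSS3 did not hold these letters. All of these windows belong to start sites inside the annotated gene. These sites were 40844048 and 40844477 for SPINT1, 35041721 for HPN and 42389149 for TMPRSS3. The genes begin at 40844018, 35040506 and, on the minus strand, 42396846. A match is a description of the sequence and not of binding, which was not measured.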

How the data were processed

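RNA was extracted from OVCA433 cells and poly(A) messenger RNA was made into libraries that kept no strand. Per the submitters' processing notes, the authors aligned reads with HISAT2 2.0.5 and counted them per gene with featureCounts 1.5.0-p3 on hg38. The deposited values are raw counts per gene, with no normalization. The study's methods describe 3 biological replicates for each group.

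Genes were kept with edgeR's filterByExpr for 3 groups (minimum count 10, minimum total 15), which left 15975 genes. Counts were scaled by TMM. The test was the quasi-likelihood F test of edgeR 4.0.16, run under R 4.3.3, and p-values were adjusted over all tested genes by the Benjamini-Hochberg method. As in the study's methods, both hairpins formed 1 knockdown group, and a model with 3 groups compared each hairpin with control and with the other. Fold changes of members with 0 counts depend on the fit, so bounds against 3 counts over the group are given. TPM was computed from the counts and the gene lengths of the table. SERPINA3 was listed under more than 1 identifier, and the first was used.

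Named genes were the 10 members whatever their values, at most 4 called genes for each list and direction by fold change, HGF, MET, F2RL1, SCNN1A, EPCAM and SLPI, MPZL3, the 3 nearest genes to ST14, SPINT1 and SPINT2, and neighbours within 50 kb. Some genes that this rule names are not reported here. The members and the lists were chosen with earlier results of these data known, and the lists hold no independent evidence. Positions are those of the count table on hg38, and 9 of 10 members had the same position in GENCODE 29. Scripts were tested on simulated data. The alternatives were other size factors, other filters, DESeq2 1.42.0, a replicate block, stricter and looser thresholds, thinned counts, other models and each library left out.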

Additional observations from a re-analysis of the deposited data

Results flagged for a closer look

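PRSS8 differed between the hairpins by a test of the difference itself, with a log2 difference of 1.10 for hairpin #3 against hairpin #1 (edgeR adjusted p = 0.00511), and all 3 hairpin #3 libraries lay above all hairpin #1 libraries. It was lower than control with both.

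SERPINE2 also differed between the hairpins, by a log2 difference of -1.25 (edgeR adjusted p = 4.05e-05). Its rise over control was 2.15 with hairpin #1 and 0.90 with hairpin #3, the latter under the fold threshold. The cause of either difference was not tested.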

How the results depend on the processing

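Of 528 recomputed fold changes of members, 524 kept their direction and their side of the threshold, 2 lost the call and 2 changed sign. Those that lost the call were PRSS8 for hairpin #3 against hairpin #1, at 0.93 when hairpin #1 replicate A was left out and 0.95 when hairpin #3 replicate A was, which took the count of members that differed between the hairpins from 1 to 0 in both cases. Those that changed sign were SPINT2 for the same comparison, never called, at 0.033 without hairpin #1 replicate C and 0.041 without hairpin #3 replicate B, in a range of -0.095 to 0.041. When 1 library was left out, the count of called members was 8 to 8 in the pooled comparison and with each hairpin against control, and 0 to 1 between the hairpins. The same gave 2 to 2 other membrane proteases, 4 to 6 other inhibitors (4 without control replicate B or C, 6 without hairpin #3 replicate A) and 10 to 11 substrates and receptors. With a mean of at least 1 CPM required, 1 other membrane protease was called, since fewer genes were tested, and with no fold threshold 15 substrates and receptors were. That CPM requirement also removed the member HPN (mean 1.57 CPM in control and 0 in knockdown libraries), which was then neither tested nor called. The 528 fold changes leave out members that the filter of a setting removed. With no filter, 9 members were called in the pooled comparison and with hairpin #1 and 10 with hairpin #3. The labels do not say what a replicate letter shares. All same-letter correlations of deviations from the group means were above 0 (0.04 to 0.36), and 7 of 9 libraries correlated best with their own letter in both other groups, a hint of shared variation from the data, but not every one passed 0.1, so the letters were not treated as pairs. With the letter as a replicate block, 8 members were called in the pooled comparison and with each hairpin and 1 between hairpins, as without it, and 6 other inhibitors instead of 5. Depth limited TMPRSS2 and TMPRSS3, with at most 11 counts in any library.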
